A study of Mus musculus with 191 samples.

Results

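The motile cilia genes described here are 39 genes of the ciliated cell, listed by symbol from what is known of the axoneme and its regulators and matched to the array by that symbol, out of 18194 genes with a probe set of their own. All 39 had a probe set that maps to no other gene symbol. Of these, 37 passed the filter on low values and were tested, and the central pair genes Spag6 and Spag17 did not pass. Values are the deposited log-scale values, taken as base 2, so that a difference of 1 stands for a doubling if the base is right.

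Lungs of female B6C3F1 mice aged 18 weeks were studied after 13 weeks of exposure to 26 chemicals or a vehicle, with 133 arrays of 34 exposed groups and 58 arrays of 14 control sets. Each array was given by the labels as a different individual, and groups held 3 to 5 arrays. Inhalation ran for 6 hours on 5 days a week, gavage was given on 5 days a week, and feed was taken on 7 days a week. No label ties a chemical to one set of controls, so all sets that share an exposure's vehicle and array batch were used for it.

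Groups are named below by chemical with the submitters' code. The corn oil gavage groups were 1,2-Dibromoethane (DBET, 62 mg/kg), Benzene (BENZ, 100 mg/kg) and Coumarin (COUM, 200 mg/kg) against the sets CCO2 and CCO3. In another array batch, 1,2,3-Trichloropropane (TCPN, 60 mg/kg) and 1,4-Dichlorobenzene (DCBZ, 600 mg/kg) were set against CCO5 and CCO6. 2,3-Benzofuran (BFUR, 240 mg/kg) had its own 3 corn oil controls, and Iodoform (IODO, 93 mg/kg) and Trichlorofluoromethane (TCFM, 3925 mg/kg) were set against CCO4. Naphthalene (NPTH) was inhaled at 0.5, 3, 10, 20 or 30 ppm and Methylene Chloride (MECL) at 100, 500, 2000, 3000 or 4000 ppm. Ethylene Oxide (ETOX, 100 ppm), Propylene glycol mono-t-butyl ether (PGBE, 1200 ppm) and Vanadium Pentoxide (VANP, 2 mg/m3) shared their air control sets ACO3, ACO4 and ACO5. 1,5-Naphthalenediamine (NAPD), N-(1-naphthyl)ethylenediamine dihydrochloride (NEDD), both at 2000 ppm, and Pentachloronitrobenzene (PCNB, 8187 ppm) were fed in chow beside 3 chow controls. 2,2-Bis(bromomethyl)-1,3-propanediol (BBMP, 1250 ppm), Malathion (MALA, 14800 ppm, while the titles give a higher figure), Diazinon (DIAZ, 200 ppm) and 4-Nitroanthranilic acid (NAAC, 10000 ppm) were fed beside the chow set FCO2. The remaining groups, none with a called member, were Tetrafluoroethylene (TFEL, 1250 ppm) and Tetrafluororethane (TFEA, 50000 ppm) in air, 1-Amino-2,4-dibromoanthraquinone (ABDQ, 20000 ppm) and Tris(2,3-dibromopropyl)phosphate (TDPP, 1000 ppm) in chow, and 2-Chloromethylpyridine hydrochloride (CMPH, 250 mg/kg) and N-Methylolacrylamide (MACR, 50 mg/kg) in water.

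Motile cilia line the airways and move mucus by a coordinated beat. Their core, the axoneme, is a ring of doublet microtubules around a central pair, with outer and inner dynein arms as motors, radial spokes that pass signals from the central pair, and nexin links and rulers that set the spacing. Cells build many such cilia from newly made basal bodies under a transcriptional programme led by Foxj1 and the RFX factors, and losses of many of these genes cause primary ciliary dyskinesia. In whole lung, fewer ciliated cells and less RNA per ciliated cell cannot be told apart.

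RFX factors bind the X-box, an inverted repeat whose core is searched here as GTTGCC on either strand. Promoter windows of 250 bases before to 50 after the transcription start (RefSeq, GRCm38.p6) were at hand for 32 of the 39 members. The core was found in 15 of these 32 genes, or 46.9%, against 14.1% of the 27025 genes with a window. The full X-box palindrome, of which the core may be part, was searched only as 1 fixed pattern of 14 bases. This pattern, with a fixed gap between the arms of the repeat, was present in 1 member (Pifo), or 3.12%, against 0.529% of all genes. Repeats with another gap or an inexact arm were not searched, so other members may hold them. The forkhead motifs TGTTTAC and TGTTTGC, the first a match in 3.12% and the other in 12.5% of members, stood in 4.05% and 5.76% of all genes. The following 60-base stretches of the gene's own strand, with the core in capitals (GGCAAC is the core read from the other strand), are from 6 members with the core that were called in several exposures, shown because the results below turn on them. They were chosen after the calls were seen, and Iqcg and Spag16, called as often as some of them, are not printed. A match is a description of letters, and a promoter without it is only one where these letters are not in this window.
Dnah7a (chr1:53706952-53707011, minus strand): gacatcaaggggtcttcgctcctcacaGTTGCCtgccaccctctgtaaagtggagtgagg
Mns1 (chr9:72438430-72438489, plus strand): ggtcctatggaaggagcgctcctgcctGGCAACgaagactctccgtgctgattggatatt
Rfx2 (chr17:56831092-56831151, minus strand): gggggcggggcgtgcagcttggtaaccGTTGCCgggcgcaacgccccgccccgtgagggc
Dynlrb2 (chr8:116504937-116504996, plus strand): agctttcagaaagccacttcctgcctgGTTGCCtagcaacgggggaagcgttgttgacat
Enkur (chr2:21205367-21205426, minus strand): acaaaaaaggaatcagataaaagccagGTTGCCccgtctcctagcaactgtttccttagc
Hydin (chr8:110266917-110266976, plus strand): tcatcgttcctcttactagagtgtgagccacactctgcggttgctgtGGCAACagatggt

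The spread of the members among unexposed mice was measured over the 58 control arrays. The SD within control sets had a median of 0.194 over the 37 tested members and of 0.165 over all 13524 tested genes. Among the members it ranged from 0.0963 for Dnah7a, an inner arm dynein heavy chain, to 0.354 for Enkur, a microtubule inner protein. Between matching control sets no member was called in 5 comparisons by limma. At an unadjusted p under 0.05, 0, 5, 9, 0 and 3 members differed in these comparisons, the 9 between ACO4 and ACO5.

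The members varied together from mouse to mouse. After group means were removed, the correlation of a member with the mean of the others over all arrays had a median of 0.638, and 14 members lay above 0.7. It was highest for Spa17, a sperm and cilium protein (r = 0.899, rho = 0.89), Rsph1, a radial spoke head gene (r = 0.881, rho = 0.872), and Tekt1, a tektin of the doublet (r = 0.877, rho = 0.857). It was lowest among tested members for the tubulin Tuba1a (0.181), the factor Rfx2 (0.251) and the tubulin Tubb4b (0.32), all of which other lung cells also use. The probe sets read for Tuba1a, Dnaic1, Dnaic2 and Ccdc39 carry the suffix x_at or s_at, which marks probes that may match other transcripts as well. Spag6 stood at -0.277 and Spag17 at -0.0519, beside a mean level in controls of -1.54 and -1.11. Arrays of a group share a vehicle and an array batch, and these values are descriptions.

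Among all other genes, the 15 most like the mean of the members over the same arrays had r of 0.867 to 0.908 and rho of 0.83 to 0.916. They were Cfap206 (r = 0.908), Fam183b (0.901), 1700094D03Rik (0.9), Stmnd1 (0.897), Drc3 (0.897), Agr3 (0.892), Cetn4 (0.891), Nme5 (0.887), Ppp1r36 (0.885), Lrrc23 (0.879), Mdh1b (0.879), Spag6l (0.875), Drc1 (0.873), Ttc29 (0.871) and Ppil6 (0.867). Spag6l is a paralog of the member Spag6, which did not pass the filter.

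A measure of RNA quality moved weakly with the mean of the members, and with several single members more than with most genes. The beta-actin 3' minus 5' difference, which grows as RNA degrades, correlated with the mean of the members within groups at r = 0.249 (rho = 0.13) over all arrays, and at 0.305 without the 2 arrays farthest from its median. Among single members r ranged from -0.146 for Rfx2 to 0.428 for Rfx3, with a median of 0.16 against -0.0103 over all tested genes. Ranked among all tested genes, Rfx3 stood at percentile 99.9, Ccdc113 at 99.5, Dnah7a at 98.6, Rsph4a at 98.5 and Ccdc39 at 98.2. Foxj1 stood at 45.6 and Rfx2, the lowest member, at 22.3. Its part in the results below was not tested, and its range is given beside each exposure with called members and beside the Methylene Chloride series.

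Across the 34 exposures the members rose more often than they fell. A gene counts as called here if limma gave an adjusted p (Benjamini-Hochberg) under 0.05 and the same sign in each comparison with a matching control set. In 1258 tests of a member in an exposure, 54 rose and 15 fell, which is 4.29% and 1.19%, beside 1.86% and 0.722% of the 459816 tests of all genes. The calls came from 12 exposures, and in 9 of these every called member rose. Of the 69 calls, 54 were of genes with 1 probe set. Of the 15 calls of genes with several, 12 moved by over 1.5 times when the mean of all probe sets replaced the brightest, and their values are given beside them. In 22 exposures limma called no member, while 0 to 9 members had an unadjusted p under 0.05. The median log2 fold change of the members ran from -0.19 with Iodoform and NEDD to 0.31 with 10 ppm Naphthalene.

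**Figure D1:**
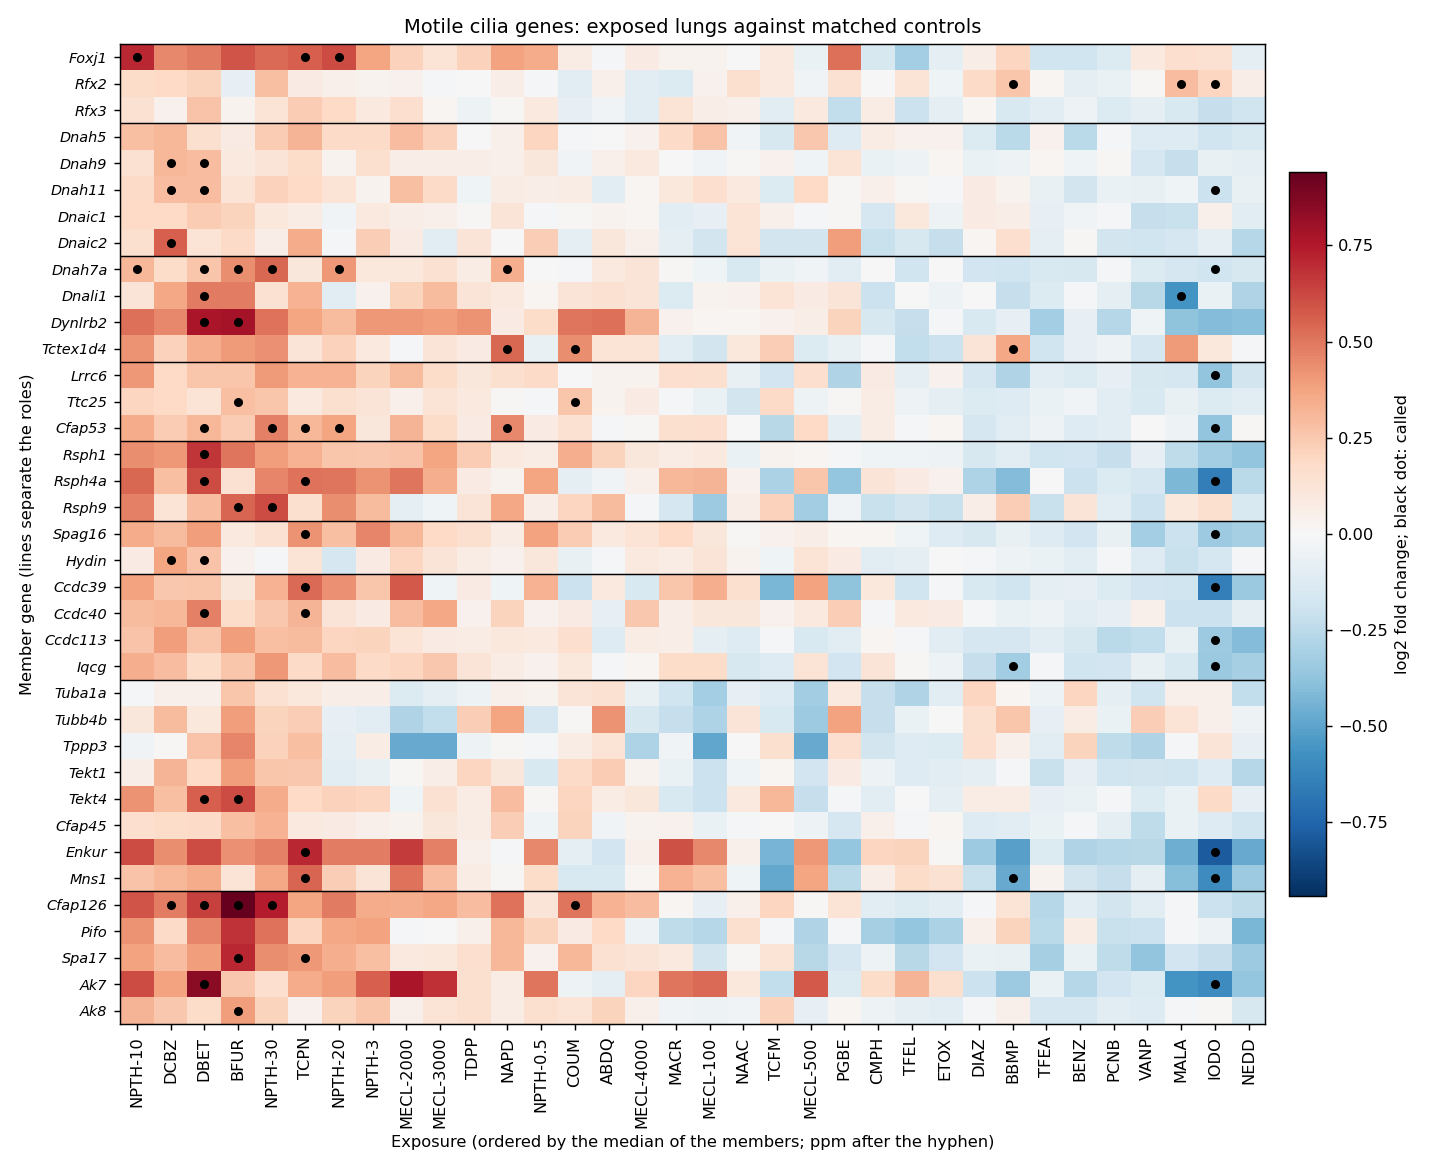
Log2 fold change of the 37 tested motile cilia genes (rows, grouped by role) in each of the 34 exposures (columns, ordered by the median of the members), with red higher and blue lower than the controls and a black dot on each call. The dots gather in 12 columns, most of them in the columns on the left, and the 12 falls with Iodoform (IODO) stand near the right edge.

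By role, the inner dynein arms and dynein light chains rose most often, with 12 rises and 2 falls in 136 tests (8.82% and 1.47%). Of these 12 rises 6 were of Dnah7a, among them those with Naphthalene at 10, 20 and 30 ppm, which share their controls. Genes of arm assembly and docking followed with 7 rises and 2 falls in 102 tests (6.86% and 1.96%), and the transcription factors with 6 in 102 (5.88%). Of the factor rises 3 were of Foxj1, among them those with Naphthalene at 10 and 20 ppm, which share their controls. The other 3 were of Rfx2, with Iodoform, BBMP and Malathion, and none of these was called with the mean of its probe sets. The microtubule and inner protein group rose in 4 of 272 tests (1.47%), and the rulers and nexin link genes fell in 4 of 136 (2.94%) and rose in 3. The single member with the most rises was Dnah7a, in 6 exposures, followed by Cfap53, which is linked to docking of the outer arm, and Cfap126 (Flattop), a basal body and inner microtubule protein, in 5 each. Foxj1, Rfx2 and Tctex1d4, a dynein light chain, rose in 3 each. Mns1 and Iqcg, a nexin link subunit, fell most often, in 2 exposures each.

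Of the 37 tested members, 28 were called at least once. The 9 that were never called were Rfx3, Dnah5, Dnaic1, Tuba1a, Tubb4b, Tppp3, Tekt1, Cfap45 and Pifo. Dnah5 and Dnaic1 are the outer arm genes most often mutated in ciliary dyskinesia, and a missing call does not show that their levels were alike.

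1,2-Dibromoethane raised genes of the dynein arms, radial spokes, central pair, ruler and doublet. In 4 lungs against 8 controls, 13 of 37 tested members rose and 0 fell, beside 2.31% and 0.362% of all genes tested, and all 37 members lay above the control mean. Their median was 0.29, against 0.02 over all genes. As the members varied together, such a count does not stand for separate results, here and below. The adenylate kinase Ak7 had 1.89, 2.50, 2.17 and 2.36 in the exposed lungs and 0.99 to 1.67 with a median of 1.37 in the controls. The groups did not overlap, and Ak7 rose by 0.85 ± 0.17 (SE, adjusted p = 0.00345). Dynlrb2, a dynein light chain, had 2.94, 3.35, 3.27 and 3.12 against 1.97 to 2.67 and rose by 0.77 ± 0.15 (adjusted p = 0.00862), also without overlap. Rsph1 had 1.85, 2.08, 2.00 and 1.87 against 1.19 to 1.4 and rose by 0.67 ± 0.12 (adjusted p = 0.000643).

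The other called members with 1,2-Dibromoethane were the outer arm chains Dnah9 (0.29) and Dnah11 (0.29), the inner arm genes Dnah7a (0.26) and Dnali1 (0.49), Cfap53 (0.31), the spoke gene Rsph4a (0.61), the central pair gene Hydin (0.27), the ruler gene Ccdc40 (0.47), the tektin Tekt4 (0.56) and Cfap126 (0.64). Over all probe sets of the gene Dnah9 was at 0.12 and Hydin at 0.06, and neither was called. The regulator Foxj1 stood at 1.76, 1.85, 2.29 and 1.98 against 1.07 to 1.85, which was 0.49 ± 0.14 and did not pass the test (adjusted p = 0.125). Dnah5 (0.15, adjusted p = 0.767), Tekt1 (0.19, adjusted p = 0.836) and Tuba1a (0.05, adjusted p = 0.837) did not pass either, and their groups overlapped.

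Genes that were no members moved alongside. Of 58 tested other motile cilia genes, 17 rose and 0 fell, led by Cfap43 (0.86), Fam216b (0.76), Cdhr4 (0.68) and Cfap54 (0.64). Of 25 intraflagellar transport genes, which carry cargo along the cilium, 4 rose and 0 fell: Traf3ip1 (0.49), Wdr19 (0.44), Ift88 (0.33) and Ift140 (0.3). Of 11 tested regulators of multiciliogenesis, Myb rose (0.74 ± 0.13, adjusted p = 0.00184). Club cell genes rose as well, 7 of 13 with a median of 0.51, among them Gabrp (1.1), Aldh1a7 (0.78) and Scgb1a1 (0.45), while 0 of 8 alveolar type 1 and 0 of 9 alveolar type 2 genes were called.

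The actin difference of the 1,2-Dibromoethane lungs was 0.71 to 1.55 against 0.6 to 0.83 in the controls, and their RNA integrity number 7.1 to 8.8 against 7.9 to 8.8. The number of rises went to 7 without exposed replicate 2, without exposed replicate 4 or without replicate 1 of CCO2, and to 8 without replicate 4 of CCO2. It was 8 after quantile normalization (1.19% of all genes), where 10 members rose with 30 ppm Naphthalene (3.02%) and 9 with 1,4-Dichlorobenzene (1.43%). It was 2 when the model was fitted to these 12 arrays alone. Against the mean of the control sets 22 rose, as many as with 30 ppm Naphthalene. Calls of all genes were not counted under that rule.

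**Figure D2:**
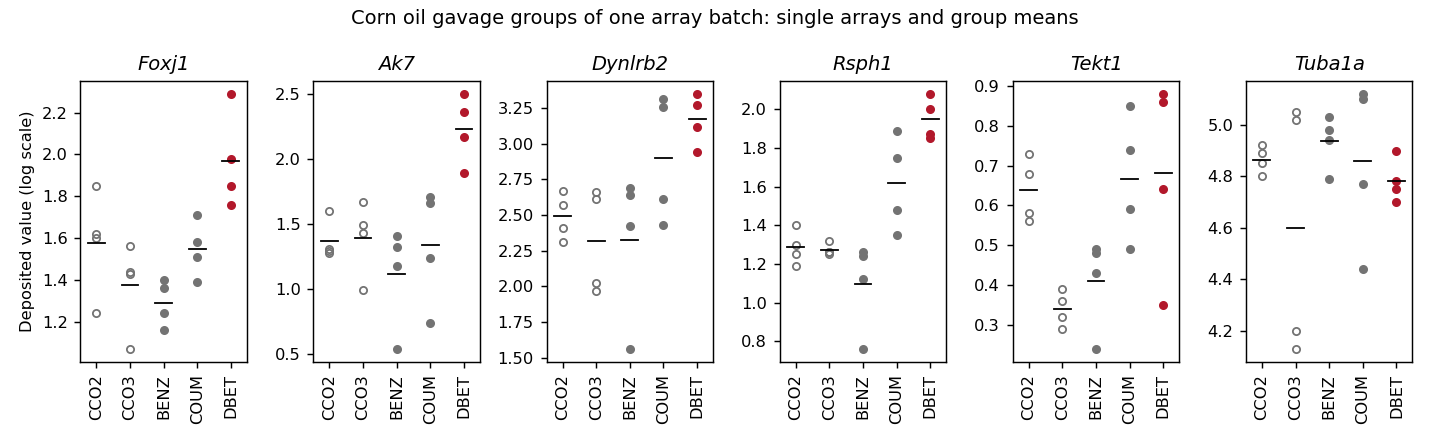
Deposited values on single arrays (points) and group means (lines) of 6 members in the corn oil gavage groups of the array batch that holds 1,2-Dibromoethane (DBET, red), with the control sets CCO2 and CCO3 as open circles. The DBET arrays of Ak7, Dynlrb2 and Rsph1 lie above all control arrays, while those of Tekt1 and Tuba1a overlap them.

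Compared directly, 1,2-Dibromoethane differed from both other chemicals given in corn oil in that batch, without use of the controls. Of 37 members 27 were lower with Benzene and 0 higher, beside 11.6% and 8.94% of all genes, with Ak7 at -1.12 (95% interval -1.5 to -0.74, Benzene minus 1,2-Dibromoethane). Foxj1 was lower as well (-0.68, interval -1.01 to -0.35, adjusted p = 0.0021). With Coumarin 17 members were lower than with 1,2-Dibromoethane and 0 higher, beside 24.4% and 14% of all genes. It went to 7 without Coumarin replicate 3, to 10 with the mean of all probe sets of a gene and to 3 when fitted to these arrays alone.

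Coumarin itself raised 3 members and lowered 0, beside 4.06% and 1.63% of all genes, with a median of 0.08. Cfap126 had 2.67, 2.62, 2.01 and 2.20 against 1.58 to 2.23 in the controls, and rose by 0.5 ± 0.13 (adjusted p = 0.0231) with overlap. Tctex1d4 had 0.91, 0.98, 0.78 and 1.00 against 0.33 to 0.67 and rose by 0.44 ± 0.1 without overlap (adjusted p = 0.0213). Ttc25, a docking factor of the outer arm, had -0.11, -0.21, -0.11 and -0.14 against -0.59 to -0.27 and rose by 0.26 ± 0.06 (adjusted p = 0.028). Rsph1 had 1.75, 1.89, 1.35 and 1.48 and did not pass (0.34, adjusted p = 0.0899), nor did Foxj1 (0.07), Dnah5 (-0.02), Tekt1 (0.18) and Tuba1a (0.12). The number of rises was 1 without Coumarin replicate 4, without replicate 2 of CCO3 or without replicate 3 of CCO2, 0 when fitted to these arrays alone and 7 after quantile normalization. After that normalization 9.1% of all genes rose. Benzene called no member, and 11 members were higher with Coumarin than with Benzene, beside 9.55% of all genes, or 6 without Coumarin replicate 4, 5 without Benzene replicate 1 and 0 when fitted to these arrays alone. The Coumarin lungs had an actin difference of 0.66 to 0.77 against 0.6 to 0.83 in the controls.

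2,3-Benzofuran raised 8 members and lowered 0, beside 1.66% and 0.2% of all genes, in 3 lungs against 3 controls. Cfap126 had 3.51, 2.59 and 2.64 against 1.85 to 2.17 and rose by 0.94 ± 0.17 (adjusted p = 0.000123), the largest fold of any called member in any exposure. Dynlrb2 had 4.06, 2.90 and 2.90 against 2.4 to 2.72 and rose by 0.78 ± 0.2 (adjusted p = 0.0181). Spa17 had 2.09, 1.26 and 1.29 against 0.7 to 0.99 and rose by 0.71 ± 0.17 (adjusted p = 0.00563). In each of them replicate 1 stood far above the other two exposed lungs, which still lay above every control.

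The rest of the called members with 2,3-Benzofuran were Tekt4 (0.61), Rsph9 of the radial spoke (0.55), Dnah7a (0.44), Ak8 (0.39) and Ttc25 (0.28). Foxj1 had 2.04, 1.84 and 1.65 against 1.19 to 1.29, without overlap, and did not pass (0.59 ± 0.19, adjusted p = 0.0871). Rsph1 (0.5, adjusted p = 0.0704), Tekt1 (0.39, adjusted p = 0.0698), Dnah5 (0.08, adjusted p = 0.853) and Tuba1a (0.26, adjusted p = 0.491) did not pass. In all, 17 of the 37 members (45.9%) lay above their controls without overlap, beside 12.4% of all genes tested.

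Of the other motile cilia genes 16 of 58 rose and 0 fell with 2,3-Benzofuran, led by Ccdc153 (0.77), Tmem212 (0.74), Lrrc23 (0.69) and Capsl (0.68). Dync2li1, a chain of the retrograde transport motor, was the 1 of 25 intraflagellar transport genes that rose (0.56), and Deup1, which builds the deuterosomes that seed new basal bodies, the 1 of 11 regulators (0.39 ± 0.08, adjusted p = 0.00218). Of 13 club cell genes 1 rose, Aldh1a1 (0.5). The actin difference was 0.36 to 0.95 in the exposed lungs against 0.43 to 0.64, and replicate 1 had the 0.95. No member was called without exposed replicate 1, 15 without exposed replicate 2 and 13 without exposed replicate 3. Without control replicate 2 there were 3 and without control replicate 3 there were 4. When fitted to these 6 arrays alone the count was 0, and without the filter on low values 5.

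1,2,3-Trichloropropane raised 9 members and lowered 0, beside 7.73% and 1.64% of all genes, and all 37 lay above the control mean. Their median was 0.28, against 0.07 over all genes. Enkur had 0.56, 0.73, 0.58 and 0.72 against -0.41 to 0.4 in 10 controls and rose by 0.71 ± 0.18 without overlap (adjusted p = 0.034). Foxj1 had 1.47, 2.10, 2.26 and 1.70 against 0.67 to 1.73 and rose by 0.56 ± 0.14 (adjusted p = 0.025) with overlap. Mns1, a doublet inner protein, had 0.51, 0.44, 0.51 and 0.44 against -0.31 to 0.27 and rose by 0.55 ± 0.13 without overlap (adjusted p = 0.0154).

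The further rises with 1,2,3-Trichloropropane were Ccdc39 (0.53) and Ccdc40 (0.32), partners in the axonemal ruler, Rsph4a (0.51), Spag16 of the central pair (0.42), Spa17 (0.41) and Cfap53 (0.31). As the mean of all probe sets of the gene Ccdc39 was at 0.08 (adjusted p = 0.538 by limma) and Spag16 at 0.02 (adjusted p = 0.984), and neither was called. Dnah5 had -0.30, -0.23, -0.31 and -0.21 against -0.77 to -0.38, without overlap, and missed the test (0.32 ± 0.08, adjusted p = 0.0556). Rsph1 (0.33, adjusted p = 0.0873), Tekt1 (0.25, adjusted p = 0.215) and Tuba1a (0.1, adjusted p = 0.851) did not pass. Of other motile cilia genes 16 of 58 rose, led by Cfap43 (0.81), Cdhr4 (0.68), Cdhr3 (0.59) and Ezr (0.57), of intraflagellar transport genes 5 of 25, led by Ift81 (0.6), Traf3ip1 (0.41), Ift80 (0.39) and Kifap3 (0.37), and none fell. Of the multiciliogenesis regulators Tfdp1 rose (0.24).

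The count for 1,2,3-Trichloropropane depended on the scaling. After quantile normalization 1 member rose, the median of all genes moved from 0.07 to -0.05 and that of the members from 0.28 to 0.14. In that setting 0.621% of all genes rose. The count was 0 without replicate 4 of CCO6 and when fitted to these arrays alone, 2 without exposed replicate 2, and 5 without exposed replicate 3 or 4 or without replicate 1 or 3 of CCO6. These exposed lungs had an actin difference of 0.53 to 0.68 against 0.35 to 0.83, and an RNA integrity number of 9.4 to 9.6 against 6.7 to 8.8 in the controls.

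1,4-Dichlorobenzene, set against the same 10 controls, raised 5 members and lowered 0, beside 1.05% and 0.377% of all genes. The median of the members was 0.29, against -0.01 over all genes, and all 37 lay above the control mean. Dnaic2, an outer arm intermediate chain, had 0.74, 0.51, 0.88 and 0.71 against -0.42 to 0.73 and rose by 0.56 ± 0.13 (adjusted p = 0.0194) with overlap. Cfap126 had 2.37, 2.33, 2.84 and 2.52 against 1.64 to 2.43 and rose by 0.48 ± 0.12 (adjusted p = 0.0419). Hydin, which builds the central pair projection, had 0.57, 0.57, 0.86 and 0.60 against 0.13 to 0.41 and rose by 0.37 ± 0.07 without overlap (adjusted p = 0.00221). Dnah9 (0.31) and Dnah11 (0.29) rose as well, so 3 of the 5 belong to the outer arm. The other probe set of Dnaic2 stood at 0.01, that of Hydin at -0.04 and that of Dnah9 at -0.01. As the mean of both probe sets Dnaic2 was at 0.28 and Hydin at 0.16, both still called, and Dnah9 at 0.15 was not.

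With 1,4-Dichlorobenzene Foxj1 had 1.76, 1.69, 1.87 and 1.74 and did not pass (0.45 ± 0.14, adjusted p = 0.206), nor did Rsph1 (0.41, adjusted p = 0.0767), Tekt1 (0.32, adjusted p = 0.189), Dnah5 (0.31, adjusted p = 0.198) and Tuba1a (0.05). The deuterosome gene Deup1 rose (0.3 ± 0.06, adjusted p = 0.0112), named here after its value was seen. The number of rises was 1 without exposed replicate 3, which had the highest mean of the members (1.12), 2 without replicate 1 or 2 of CCO5, 3 without replicate 2 of CCO6, 0 when fitted to these arrays alone and 9 after quantile normalization. After that normalization 1.43% of all genes rose. In the direct contrast with 1,2,3-Trichloropropane 0 members differed by limma in either direction, 3 had an unadjusted p under 0.05, and the median difference was 0.06 (1,4-Dichlorobenzene minus 1,2,3-Trichloropropane), beside 5.12% and 4.63% of all genes called higher and lower. Without 1,4-Dichlorobenzene replicate 3, 2 members were higher with 1,2,3-Trichloropropane. The actin difference was 0.21 to 0.79 against 0.35 to 0.83.

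Naphthalene, one of the 2 chemicals given at several concentrations, raised 2 members at 10 ppm, 3 at 20 ppm and 4 at 30 ppm, and lowered none. All genes rose in 0.421%, 1.12% and 1.58% of tests and fell in 0.133%, 0.998% and 0.466%. At 0.5 and 3 ppm no member was called by limma, with 0 and 2 at an unadjusted p under 0.05 and medians of 0.08 and 0.18. The medians at the higher concentrations were 0.31, 0.22 and 0.28.

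Dnah7a was higher at each of the 3 higher concentrations. The 14 air controls ran from -0.74 to -0.29 with a median of -0.54. At 0.5 ppm the lungs had -0.39, -0.62, -0.54 and -0.56, and at 3 ppm -0.53, -0.37, -0.42 and -0.41, within the controls. At 10 ppm they had -0.26, -0.20, -0.23 and -0.21, at 20 ppm -0.11, -0.15, -0.05 and -0.17, and at 30 ppm -0.07, 0.11, 0.01 and -0.03, all above every control. The log2 fold changes were 0.31 ± 0.06 (adjusted p = 0.0174), 0.41 ± 0.06 (adjusted p = 1.71e-05) and 0.54 ± 0.06 (adjusted p = 1.75e-09). At 30 ppm Cfap126 had 2.56, 3.04, 2.63 and 2.72 against 1.62 to 2.42 and rose by 0.74 ± 0.12 without overlap (adjusted p = 0.00412). Rsph9 had 1.80, 2.12, 1.83 and 1.87 against 1 to 1.84 and rose by 0.61 ± 0.11 (adjusted p = 0.0134). Cfap53 rose at 20 ppm (0.37) and 30 ppm (0.47).

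The Foxj1 level was highest on average at 10 ppm. It had 2.05, 2.01, 2.06 and 1.95 at 10 ppm against 0.99 to 1.53 in the controls and rose by 0.71 ± 0.13 (adjusted p = 0.022), and had 2.01, 1.79, 2.10 and 1.79 at 20 ppm, a rise of 0.61 ± 0.13 (adjusted p = 0.0414). At 30 ppm it had 1.74, 2.10, 1.71 and 1.82, also above every control, and did not pass against each set (0.53 ± 0.13, adjusted p = 0.104). Rsph1 (0.44, 0.26 and 0.39 at 10, 20 and 30 ppm), Dnah5 (0.28, 0.18 and 0.24), Tekt1 (0.06, -0.1 and 0.26) and Tuba1a (-0.01, 0.06 and 0.14) did not pass at any of them.

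**Figure D3:**
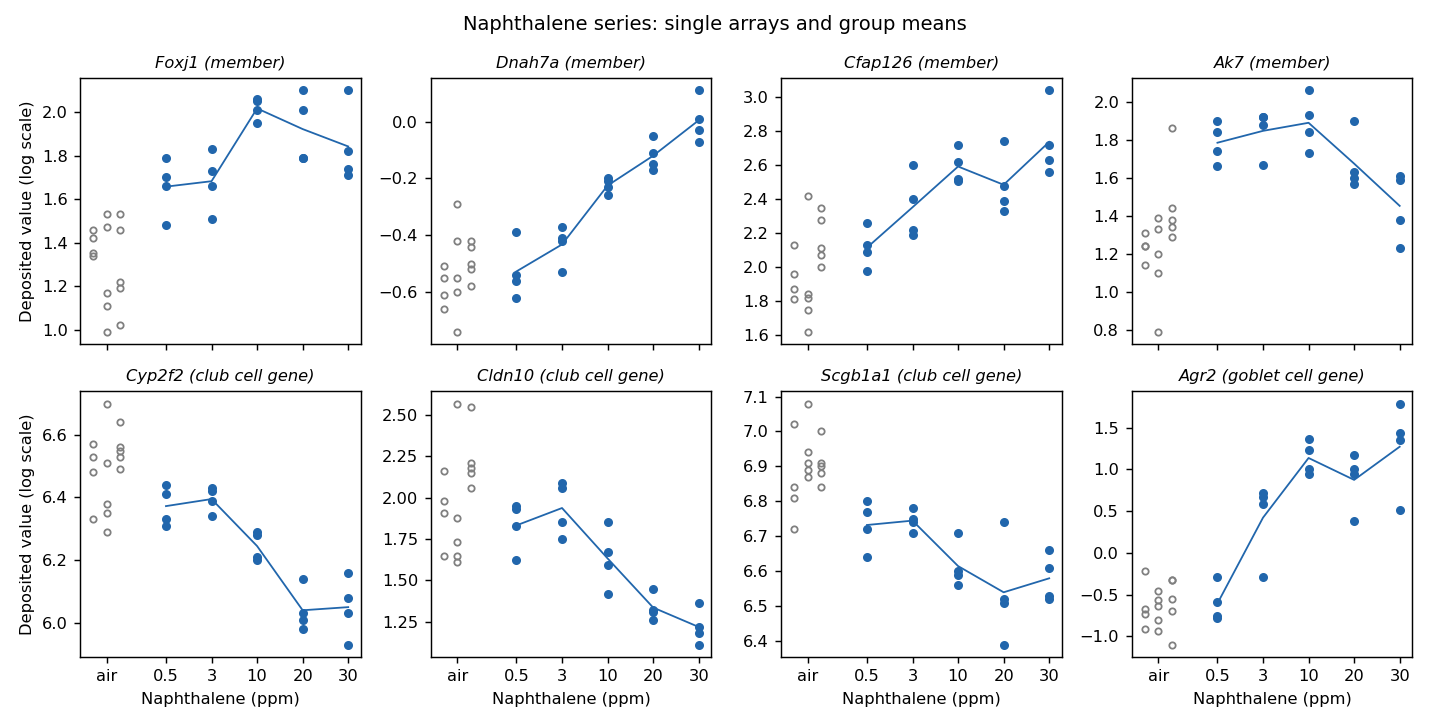
Deposited values on single arrays (points) and group means (line) by naphthalene concentration in ppm, drawn as evenly spaced steps, with the 3 air control sets as open circles at the left, for 4 members (top) and 4 genes of club and goblet cells (bottom). Dnah7a and Cfap126 are higher at 30 ppm than in every control array, the Ak7 group mean goes from 1.89 at 10 ppm to 1.45 at 30 ppm, and Cyp2f2 and Cldn10 are lower at 30 ppm than in every control array.

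Over the 20 exposed arrays the fitted trend with concentration rose for 14 of 37 members and fell for 3, beside 9.08% and 31.7% of all genes, with a median of 0.17 against -0.07. Dnah7a changed by 0.51 from 0.5 to 30 ppm (adjusted p = 1.65e-07), Cfap126 by 0.48, Rsph9 by 0.44, Tctex1d4 by 0.39 and Cfap53 by 0.38. Iqcg (0.3), Tekt1 (0.29), Tubb4b (0.28), Cfap45 (0.28), Spa17 (0.28), Rfx2 (0.23), Lrrc6 (0.2), Ttc25 (0.2) and Dnah11 (0.16) rose too. Ak7 fell by 0.37, Spag16 by 0.27 and Hydin by 0.18. With the air controls added at 0 ppm 24 rose and 0 fell, beside 6.92% and 22.9% of all genes. Ak7 then stood at 0.13 and Spag16 at 0.09. Leaving out all arrays of replicate number 3 left 8 rises, and leaving out number 1 left 1 fall. For Ak7 the group means were 1.79, 1.85, 1.89, 1.68 and 1.45 in order of concentration, against 0.79 to 1.86 in the controls.

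Other epithelial genes moved in the same naphthalene lungs. At 30 ppm 9 of 58 other motile cilia genes rose and 0 fell, and Deup1 rose at 20 ppm (0.29) and 30 ppm (0.4 ± 0.06, adjusted p = 2.21e-05), named here after its values were seen. Of 13 club cell genes 4 fell at 30 ppm, Gabrp (-1.12), Cldn10 (-0.8), Hp (-0.5) and Cyp2f2 (-0.44), the last a P450 that bioactivates naphthalene, and 5 fell at 20 ppm. Of 7 tested goblet cell genes 1 rose at 3, 10 and 20 ppm and 2 at 30 ppm, and 0 fell. Agr2 was among them at each of these concentrations and rose by 1.91 ± 0.14 at 30 ppm (adjusted p = 4.29e-17). Actin differences were 0.43 to 0.61 at the 3 higher concentrations against 0.54 to 0.98 in the controls.

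Some of the naphthalene calls rested on single lungs. At 10 ppm the count was 0 without exposed replicate 2 and 1 without exposed replicate 1, 3 or 4, without replicate 1, 3 or 4 of ACO3, without replicate 4 of ACO5 or without arrays of low RNA integrity. At 20 ppm it was 1 without exposed replicate 1 or 3, and at 30 ppm 2 without exposed replicate 2. Set against the mean of the 3 control sets in place of each set, 21, 10 and 22 members rose at 10, 20 and 30 ppm and 0 fell. Calls of all genes were not counted under that looser rule. After quantile normalization the counts were 5, 5 and 10, beside rises of 0.828%, 2% and 3.02% of all genes.

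Naphthalene at 30 ppm was also set directly against 4 other inhaled chemicals of the batch, in contrasts that all use the same 4 naphthalene arrays. At the highest concentrations 29 of 37 members were higher with Naphthalene than with Vanadium Pentoxide and 0 lower, beside 4.04% and 5.58% of all genes, with Cfap126 at 0.85 (95% interval 0.56 to 1.14), Spa17 at 0.81 and Rsph9 at 0.81. Against Propylene glycol mono-t-butyl ether 21 were higher (4.87% of all genes, with 24% lower), against Ethylene Oxide 20 (4.11%) and against 4000 ppm Methylene Chloride 10 (3.14%), and 0 were lower in each. Without Naphthalene replicate 2 these counts were 16, 15, 10 and 4, with 1 member lower against Propylene glycol mono-t-butyl ether, and without replicate 4 the count was 12 against Ethylene Oxide and 5 against Methylene Chloride. It was 11 and 12 without Ethylene Oxide replicate 1 and 4, and 6 without Methylene Chloride replicate 1 or 3.

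The other inhaled chemicals differed from each other in fewer members. With 4000 ppm Methylene Chloride 8 members were higher than with Vanadium Pentoxide and 1 lower, beside 6.31% and 6.2% of all genes. Spa17 (0.49, 95% interval 0.2 to 0.77) and Spag16 (0.45, interval 0.19 to 0.7) differed most, and the tubulin Tubb4b was the lower one (-0.38). As the mean of its probe sets Spag16 was at 0.1 and was not called. With Propylene glycol mono-t-butyl ether 5 were higher than with Vanadium Pentoxide and 0 lower (14.1% and 3.64% of all genes), led by Dnaic2 (0.59, interval 0.29 to 0.88). As the mean of its probe sets Dnaic2 was at 0.25, still called. Foxj1 (-0.62, interval -0.94 to -0.29) and Dnaic2 (-0.62) were lower with Ethylene Oxide than with Propylene glycol mono-t-butyl ether, beside 5.27% of all genes lower and 0.754% higher. As the mean of its probe sets Dnaic2 was at -0.27 in that contrast. Rfx2 (-0.24), Tubb4b (-0.53) and Tppp3 (-0.45), a tubulin polymerization gene, were lower and Dnah7a (0.23) higher with Methylene Chloride than with Propylene glycol mono-t-butyl ether (6.39% and 0.924%). As the mean of its probe sets Rfx2 was at 0 and was not called. Cfap45, a doublet inner protein, was the 1 member higher with Ethylene Oxide than with Vanadium Pentoxide (0.26, beside 4.81% of all genes higher and 4.96% lower). Each of these contrasts moved by over 1.5 times when single arrays were left out. The count of 8 went to 3 without Methylene Chloride replicate 1, 2 or 4 or without Vanadium Pentoxide replicate 1 or 2, and to 5 without Vanadium Pentoxide replicate 4. The count of 5 went to 1 without Propylene glycol mono-t-butyl ether replicate 1, 2 without Vanadium Pentoxide replicate 1 or 2 and 3 without its replicate 4. The falls of Foxj1 and Dnaic2 were 0 without Ethylene Oxide replicate 1 or 4 or without Propylene glycol mono-t-butyl ether replicate 1, and the call of Cfap45 was lost without Ethylene Oxide replicate 2 or 3 or any single Vanadium Pentoxide array. The falls were 4 without Ethylene Oxide replicate 3 and 1 without Propylene glycol mono-t-butyl ether replicate 3, and without replicate 4 of the latter 1 member was higher. The call of Tubb4b against Vanadium Pentoxide was lost without Methylene Chloride replicate 1, 3 or 4 or Vanadium Pentoxide replicate 1, 2 or 3. Between Methylene Chloride and Propylene glycol mono-t-butyl ether the 3 lower members became 1 without replicate 1 or 3 of either. The higher one became 0 without replicate 1 or 4 of Methylene Chloride or 1 or 2 of Propylene glycol mono-t-butyl ether, and 2 without Methylene Chloride replicate 2 or Propylene glycol mono-t-butyl ether replicate 4.

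Methylene Chloride called no member at any of 5 concentrations against its controls, with 0 to 9 members at an unadjusted p under 0.05 by limma. At 4000 ppm Foxj1 had 1.41, 1.46, 1.20 and 1.48, within the 0.99 to 1.53 of the controls (0.08 ± 0.13, adjusted p = 0.999), and Rsph1 (0.11), Dnah5 (0.04), Tekt1 (0.03) and Tuba1a (-0.07) did not pass. Over the 21 exposed arrays, 14 members rose with concentration and 1 fell, beside 27.2% and 15.1% of all genes. The largest rises were Cfap126 (0.43), Tekt4 (0.38), Dynlrb2 (0.37) and Spa17 (0.37), and Ccdc39 fell by 0.5. With the air controls added at 0 ppm 4 rose and 0 fell, beside 3.04% and 2.31% of all genes. Without arrays of replicate number 2 there were 8 rises, beside 15.4% of all genes. Without arrays of number 1 there were 4 falls, and without number 2 or 4 there was none. Set against the mean of the 3 control sets, 5, 5, 12 and 5 members rose and 4, 4, 1 and 1 fell at 100, 500, 2000 and 3000 ppm. Calls of all genes were not counted under that rule. The actin difference was 0.42 to 0.79 over the 5 concentrations against 0.54 to 0.98 in the controls. Ak7 was called at no concentration, with group means of 1.82, 1.87, 2.06, 1.98 and 1.49 in order of concentration.

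The 2 amines derived from naphthalene and fed at the same level went apart. 1,5-Naphthalenediamine carries free amino groups on both rings, and N-(1-naphthyl)ethylenediamine carries an ethylenediamine chain. Of 37 members 8 were higher with NAPD than with NEDD and 0 lower, beside 1.43% and 0.104% of all genes, with a median difference of 0.37. Cfap126 had 2.61, 2.54 and 2.53 with NAPD and 1.83, 1.79 and 1.81 with NEDD, a difference of 0.75 (95% interval 0.41 to 1.08, adjusted p = 0.00245). Pifo, a ciliary disassembly factor, had 2.04, 1.96 and 1.91 against 1.15, 1.29 and 1.25 (0.74, interval 0.33 to 1.14, adjusted p = 0.0315). Spa17 (0.65), Tctex1d4 (0.56), Ccdc113 (0.51), Dnah7a (0.49, adjusted p = 3.17e-06), Cfap53 (0.44) and Cfap45 (0.42) were higher too. A total of 27 pairs of exposures with a shared vehicle and batch were compared in this way, with p-values adjusted over genes within each pair. Of the members that were not called, Foxj1 stood at 0.47 with an interval of 0.09 to 0.85 (adjusted p = 0.361).

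**Figure D4:**
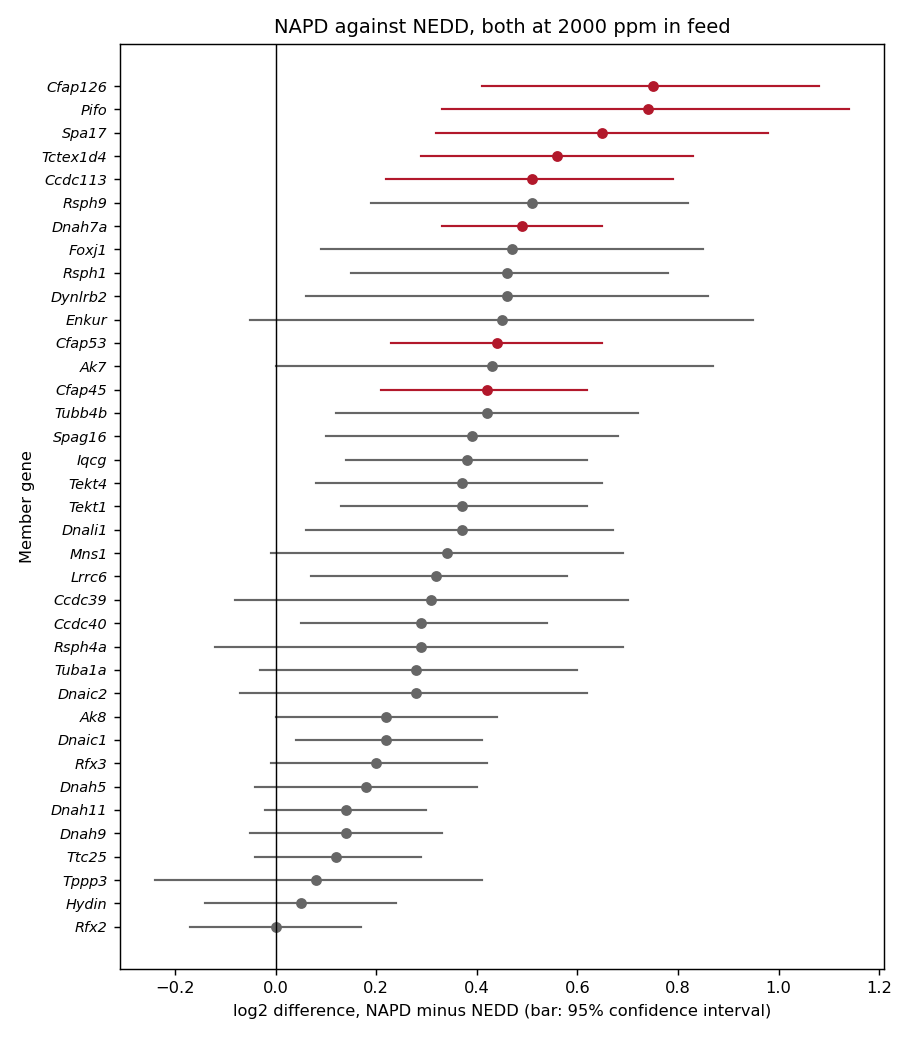
Log2 difference between the lungs fed 1,5-Naphthalenediamine (NAPD) and N-(1-naphthyl)ethylenediamine dihydrochloride (NEDD), 3 arrays each, for the 37 tested members, with bars as 95% confidence intervals and called members in red. The 8 called members lie between 0.42 and 0.75.

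Against the 3 chow controls NAPD raised 3 members and lowered 0, beside 1.04% and 0.0592% of all genes. Tctex1d4 had 1.11, 1.24 and 1.07 against 0.44 to 0.74 and rose by 0.54 ± 0.14 (adjusted p = 0.0143). Cfap53 had 0.53, 0.44 and 0.27 against -0.1 to 0 and rose by 0.45 ± 0.11 (adjusted p = 0.00538). Dnah7a had -0.27, -0.29 and -0.32 against -0.68 to -0.54 and rose by 0.34 ± 0.08 (adjusted p = 0.00652). None of the 3 overlapped its controls. Foxj1 had 1.76, 1.79 and 1.86 against 1.1 to 1.63 and did not pass (0.38 ± 0.19, adjusted p = 0.785), and neither did Rsph1 (0.09), Tekt1 (0.11), Dnah5 (0.05) and Tuba1a (0.05).

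NEDD called no member by limma, with 7 at an unadjusted p under 0.05, while 35 of 37 lay below the control mean. The median of the members was -0.19, against -0.01 over all genes. Of the members 18 (48.6%) lay below the controls without overlap, as did 7.18% of all genes tested. Rsph1 had 0.91, 1.09 and 1.05 against 1.21 to 1.63 (-0.37 ± 0.16, adjusted p = 0.57). Tekt1 (-0.27), Tuba1a (-0.23), Dnah5 (-0.14) and Foxj1 (-0.09) did not pass. The actin difference was 0.23 to 0.31 with NAPD, 0.22 to 0.46 with NEDD and 0.51 to 0.64 in the controls. The count of 8 was 4 without any single NAPD replicate or without NEDD replicate 1 and 22 when fitted to these 6 arrays alone, and the 3 rises with NAPD were 0 without chow control replicate 1 and 5 after quantile normalization. With NAPD 1.43% of all genes rose after that normalization. Against Pentachloronitrobenzene 4 members were higher with NAPD (1.18% of all genes), or 13 in the fit to those arrays alone and 2 without Pentachloronitrobenzene replicate 1.

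Members fell in 3 exposures, and 12 of the 15 falls came with Iodoform. Of 37 members 12 fell and 1 rose, beside 11.9% and 15.6% of all genes, so the share that fell, with a median of -0.19 against 0.06 over all genes, is to be read against a lung in which many genes changed. Enkur had -0.71, -1.19, 0.09 and -0.24 against -0.39 to 0.87 in 4 controls and fell by 0.78 (SE 0.22, adjusted p = 0.0106). Rsph4a had -0.92, -1.26, -0.44 and -0.58 against -0.8 to 0.43 and fell by 0.65 (SE 0.18, adjusted p = 0.00934). Ccdc39 had -1.24, -1.42, -0.87 and -1.11 against -1.27 to 0.14 and fell by 0.64 (SE 0.17, adjusted p = 0.00893), or by 0.28 as the mean of its probe sets, still called. All 3 overlapped their controls.

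The other falls with Iodoform were Ak7 (-0.59), Mns1 (-0.59), Lrrc6, an assembly factor (-0.37), Cfap53 (-0.37), Iqcg (-0.35), Spag16 (-0.34), Ccdc113 (-0.34), Dnah11 (-0.2) and Dnah7a (-0.19). As the mean of its probe sets Spag16 was at -0.06 (adjusted p = 0.313 by limma) and was not called. Rfx2 had 0.18, 0.41, 0.15 and 0.15 against 0 to 0.06 and rose by 0.2 ± 0.07 (adjusted p = 0.0389), or 0.1 and not called as the mean of its 4 probe sets. Foxj1 had 1.29, 1.92, 1.83 and 1.69 against 1.32 to 1.93 and did not pass (0.14, adjusted p = 0.52), nor did Rsph1 (-0.33, adjusted p = 0.0577), Dnah5 (-0.19, adjusted p = 0.11), Tekt1 (-0.12) and Tuba1a (0.05).

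Of other motile cilia genes 18 of 58 fell and 0 rose with Iodoform, led by Cfap43 (-0.8), Cfap69 (-0.6), Fam216b (-0.55) and Capsl (-0.48). Of 25 intraflagellar transport genes 9 fell and 0 rose, led by Ift74 (-0.81), Ift81 (-0.68), Kifap3 (-0.45) and Ift80 (-0.43), and of 13 club cell genes 3 fell. The actin difference was 0.26 to 0.49 against 0.56 to 0.94 in the controls, without overlap. The 12 falls were 0 without exposed replicate 2, the array with the widest spread of values, without replicate 1 or 3 of CCO4, and when fitted to these 8 arrays alone, and the rise of Rfx2 was lost in the same 4 fits. In the direct contrast with Trichlorofluoromethane, 1 member was lower with Iodoform (0.148% of all genes), the docking gene Ttc25 (-0.31, interval -0.45 to -0.16, adjusted p = 0.0168, named after its value was seen). The count was 0 without Iodoform replicate 1 or 2, 5 without replicate 3 and 2 without replicate 4, 0 without Trichlorofluoromethane replicate 1 or 4 and 6 without its replicate 2.

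In 2 feed exposures members moved both ways. 2,2-Bis(bromomethyl)-1,3-propanediol raised 2 members and lowered 2, beside 10.4% and 0.399% of all genes. Mns1 had -0.32, -0.17, -0.58 and -0.34 against -0.24 to 0.45 in 4 controls and fell by 0.47 (SE 0.15, adjusted p = 0.0362), and Iqcg had -0.99, -0.86, -1.19 and -1.10 against -0.86 to -0.5 and fell by 0.33 (SE 0.1, adjusted p = 0.032). Tctex1d4 had 1.03, 0.85, 0.87 and 0.86 against 0.27 to 0.7 and rose by 0.36 ± 0.12 (adjusted p = 0.0368). Rfx2 had 0.29, 0.37, 0.36 and 0.25 against -0.08 to 0.24 and rose by 0.26 ± 0.07 (adjusted p = 0.024), or -0.01 as the mean of its 4 probe sets. Foxj1 (0.2), Rsph1 (-0.11), Dnah5 (-0.25), Tekt1 (-0.02) and Tuba1a (0.02) did not pass. None was called after quantile normalization, without exposed replicate 3 or 4 or without replicate 2 or 4 of FCO2. Without replicate 3 of FCO2 0 rose, without exposed replicate 2 there were 5 falls, without exposed replicate 1 there was 1 in each direction, and without replicate 1 of FCO2 there was 1 fall. Actin differences were 0.29 to 0.36 against 0.46 to 0.62 in the controls.

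Malathion raised 1 member and lowered 1 against the same 4 controls, beside 0.991% and 0.717% of all genes. Dnali1, a light intermediate chain of the inner arm, had 0.81, 0.88, 0.45 and 1.02 against 1.02 to 1.71 and fell by 0.56 (SE 0.13, adjusted p = 0.00728). Rfx2 had 0.30, 0.46, 0.35 and 0.30 against -0.08 to 0.24 and rose by 0.29 ± 0.07 without overlap (adjusted p = 0.0188). Of all genes tested 6.95% lay above these controls without overlap. Foxj1 (0.16), Rsph1 (-0.24), Dnah5 (-0.12), Tekt1 (-0.19) and Tuba1a (0.05) did not pass. The rise was lost without exposed replicate 2 or 3 or replicate 3 or 4 of FCO2, the fall without exposed replicate 3 or replicate 1 of FCO2. There were 2 rises without exposed replicate 4 or replicate 1 of FCO2 and 2 falls without replicate 3 of FCO2. Both were lost with the mean of all probe sets, where Rfx2 was at 0.1, and in the fit to these arrays alone. The actin difference of the Malathion lungs was 0.38 to 0.54 against 0.46 to 0.62 in the controls. Compared directly, 5 members were lower with Malathion than with 4-Nitroanthranilic acid and 0 higher, beside 12.4% and 3.66% of all genes. They were Ak7 (-0.66, interval -1.04 to -0.28), Dnali1 (-0.61), Dnaic1 (-0.34), Ccdc40 (-0.3) and Hydin (-0.24). As the mean of its probe sets Hydin was at 0.01 (4-Nitroanthranilic acid minus Malathion) and was not called. Dnali1 (0.56) and Dnaic1 (0.29) were higher with Diazinon than with Malathion, beside 0.68% of all genes higher and 0.296% lower. The first count went to 2 without Malathion replicate 3 or 4-Nitroanthranilic acid replicate 1 or 4, 3 without Malathion replicate 4 or 4-Nitroanthranilic acid replicate 3 and 10 without 4-Nitroanthranilic acid replicate 2. The other went to 0 without Malathion replicate 3 or Diazinon replicate 3 and to 1 without Malathion replicate 1 or 2 or Diazinon replicate 1 or 4.

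The 22 exposures without a called member held lungs in which other genes changed and lungs in which almost none did. With Tetrafluoroethylene 5.65% of all genes rose and 1.48% fell, while 10 of 37 members lay above the control mean and the median was -0.05. With N-Methylolacrylamide 4.19% rose and 1.04% fell, with 22 members above and a median of 0.04. With Vanadium Pentoxide 3.02% rose and 1.31% fell, with 4 members above and a median of -0.14. The shares that rose and fell were 0.643% and 0.274% with 1-Amino-2,4-dibromoanthraquinone, 0.614% and 0.0592% with Propylene glycol mono-t-butyl ether and 0.192% and 0.296% with Trichlorofluoromethane, where the medians of the members were 0.05, -0.01 and 0.

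In the rest few genes were called at all. The shares of all genes that rose and fell were 0.0592% and 0.037% with Tetrafluororethane (median of the members -0.09), 0.00739% and 0 with Tris(2,3-dibromopropyl)phosphate (0.08), 0.0887% and 0 with NEDD (-0.19), 0.00739% and 0 with Pentachloronitrobenzene (-0.11), 0.0296% and 0 with Benzene (-0.09) and 0.0148% and 0 with 4-Nitroanthranilic acid (0.02). With Methylene Chloride they were 0.0148% and 0.133% at 100 ppm, 0 and 0 at 500 ppm, 0.00739% and 0.00739% at 2000 ppm, 0.274% and 0.303% at 3000 ppm and 0.251% and 0.251% at 4000 ppm. With Naphthalene they were 0.126% and 0.244% at 0.5 ppm and 0.0739% and 0.281% at 3 ppm. Ethylene Oxide, 2-Chloromethylpyridine hydrochloride and Diazinon had none in either direction, with member medians of -0.05, -0.01 and -0.06.

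Spag6 and Spag17, the central pair genes that did not pass the filter, had exposed arrays that overlapped their controls in each of the 12 exposures with called members, though single arrays lay outside the control range in several, and no fold is given for them. Among the other exposures Spag6 lay above its controls with Trichlorofluoromethane (-1.39 to -1.19 against -1.52 to -1.44) and below them with 4-Nitroanthranilic acid (-1.92 to -1.67 against -1.65 to -1.45), and Spag17 overlapped its controls in each of them. Of all tested genes 3.84% lay above the controls with Trichlorofluoromethane and 3.46% below them with 4-Nitroanthranilic acid.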

How the data were processed

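The values are those of the deposited series matrix, 45101 probe sets on Affymetrix mouse genome arrays, each array from 1 animal. They are on a log scale and centred near 0 on every array (array means -0.00269 to 0.00334). The deposited log2 values are taken as such because the base of the logarithm, the normalization and the reference are not given in the sources used here, and the number of arrays limits the precision. Each gene was read from the probe set of highest mean among those with only its symbol, 18194 genes in all.

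Genes with at least 3 arrays above the median of all values (-0.386) were kept, leaving 13524. With limma 3.58.1 in R 4.3.3, 1 model with a mean for each of the 48 groups used all arrays, p-values were adjusted by Benjamini-Hochberg over all genes tested, and the adjusted p printed is the largest over the control sets. The fold is against the equal-weight mean of those sets, with its standard error. Slopes over concentration came from the exposed arrays of a series. Tested on simulated data, the model recovered 68% of shifts of 0.5 and 99% of shifts of 1 for 1,2-Dibromoethane, 69% and 98% for 30 ppm Naphthalene and 82% and 99% for Iodoform. Unchanged genes called numbered 0, 0 and 11, the last 5.73% of the calls for Iodoform. The simulated noise was drawn independently for each gene, while the members varied together from mouse to mouse. The matching control sets were also simulated with a common mean, so differences between real sets, which the call rule meets, were left out. These shares therefore do not give the error rate or the recovery for the members.

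In each exposure with calls the text gives Foxj1, Dnah5, Rsph1, Tekt1 and Tuba1a, the 3 called members of largest fold and any called against the majority. From the other cilia lists it gives up to 4 called genes in the 4 exposures with most calls. Further members are given as counts or folds. The members and lists were chosen with earlier results of these data known. Alternatives were quantile normalization within a batch, no filter, averaging a gene's probe sets, fitting only a contrast's own arrays, the mean of the control sets, no arrays of RNA integrity number under 7, and each array left out.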

Additional observations from a re-analysis of the deposited data

Results flagged for a closer look

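Dixon's test was applied to 100 groups of at least 4 values, and 9 of them held a value far from the rest, where chance alone flags about 1 in 20. For the mean of the members, the highest array stood apart in the air control set ACO4 (0.862), with Ethylene Oxide (0.791) and with Tetrafluororethane (0.775). For single members it was the highest array of Tctex1d4 with 2,2-Bis(bromomethyl)-1,3-propanediol (1.03), of Dnah9 (1.00) and Hydin (0.86) with 1,4-Dichlorobenzene and of Rfx2 with Iodoform (0.41). With 1,2-Dibromoethane it was the lowest array of Dnah11 (0.43) and of Rsph4a (0.08).

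Among the 27 pairs of exposures compared directly by limma, those with a called member were the following. Each count is out of 37 tested members, to be read beside the share of all genes called in that pair, given above. With 1,2-Dibromoethane 27 members were higher than with Benzene and 17 higher than with Coumarin, and with Coumarin 11 were higher than with Benzene. With 30 ppm Naphthalene 29 were higher than with Vanadium Pentoxide, 21 than with Propylene glycol mono-t-butyl ether, 20 than with Ethylene Oxide and 10 than with 4000 ppm Methylene Chloride. With 1,5-Naphthalenediamine 8 were higher than with N-(1-naphthyl)ethylenediamine dihydrochloride and 4 than with Pentachloronitrobenzene. With Iodoform 1 was lower than with Trichlorofluoromethane. With 4000 ppm Methylene Chloride 8 were higher and 1 lower than with Vanadium Pentoxide, and 1 higher and 3 lower than with Propylene glycol mono-t-butyl ether. With Propylene glycol mono-t-butyl ether 5 were higher than with Vanadium Pentoxide, beside 14.1% of all genes. With Ethylene Oxide 2 were lower than with Propylene glycol mono-t-butyl ether, beside 5.27% of all genes. With Ethylene Oxide 1 was higher than with Vanadium Pentoxide, beside 4.81% of all genes. In these pairs the members were called in that direction about as often as all genes, or less often. With 4-Nitroanthranilic acid 5 were higher than with Malathion, also about as often as the 12.4% of all genes. With Diazinon 2 were higher than with Malathion, beside 0.68% of all genes.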

How the results depend on the processing

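No paired analysis was possible because the replicates carry accession-order numbers only. Of 277 results on named members, 82 kept their direction and their side of the threshold under every alternative run. The 113 counts carry no sign and could not reverse, and several went to 0 in the settings listed below. By setting, 44 of 277 named results lost the call after quantile normalization, 8 of 277 without the filter, 27 of 245 with the mean of all probe sets and 102 of 245 in the arrays of the contrast alone. In members called, quantile normalization gave 2 falls with TFEL, 3 rises and 2 falls with TCFM, 2 rises with ABDQ, 5 with NAPD, 2 with MECL at 2000 ppm, 1 fall at 3000 ppm, 5, 5 and 10 rises with NPTH at 10, 20 and 30 ppm, 1 fall with VANP, and rises of 1 with TCPN, 9 with DCBZ, 8 with DBET, 7 with COUM, 2 with MACR, 0 (and 0 falls) with BBMP and 2 with MALA. Shares of all genes that rose were then 11% with MACR, 9.1% with COUM, 7.59% with TCFM, 3.97% with ABDQ and 2.83% with MALA. They were 1.43% with NAPD and DCBZ, 1.19% with DBET, 0.621% with TCPN and 0.288% with MECL at 2000 ppm. Shares that fell were 7.31% with TFEL, 3.79% with TCFM, 2.67% with VANP and 1.66% with MECL at 3000 ppm. Between exposures quantile normalization gave 18 higher with NPTH than MECL, 1 lower with DBET than BENZ, 3 lower with DBET than COUM, 17 higher with COUM than BENZ, 4 lower with IODO than TCFM, 2 lower with TCPN than DCBZ, and 2 between CCO2 and CCO3. In the same setting 3 were higher in PGBE minus VANP, 1 lower in ETOX minus PGBE, 0 higher and 1 lower in MECL minus PGBE, 2 higher in ETOX minus VANP, 1 higher in DIAZ minus MALA, and 2 higher and 2 lower in NAAC minus MALA. Without the filter there were 5 rises with BFUR, 1 fall with TCPN, 1 lower in both DBET minus COUM and TCPN minus DCBZ, 2 lower in PGBE minus VANP and in NAAC minus MALA, 0 higher in ETOX minus VANP and 1 higher in DIAZ minus MALA. The mean of all probe sets gave 1 fall with TFEL, 0 rises with IODO, 1 with BBMP, 0 rises and 0 falls with MALA, 10 higher and 2 lower in DBET minus COUM, 2 lower in IODO minus TCFM, 4 lower in TCPN minus DCBZ, 1 lower in ETOX minus VANP and in NAAC minus MALA, and 0 higher in DIAZ minus MALA. It reversed Rfx2 with BBMP (-0.01), Rfx2 in DBET minus BENZ (0), and Hydin (-0.01) and Rfx2 (-0.15) in DBET minus COUM. The arrays of the contrast alone gave 1 fall with TFEL, 0 rises and 0 falls with IODO, rises of 0 with BFUR, 1 with NPTH at 10 ppm, 0 with TCPN, 0 with DCBZ, 2 with DBET and 0 with COUM, 1 rise and 1 fall with BBMP, and 0 and 0 with MALA. The same fits gave 22 higher in NAPD minus NEDD, 3 in DBET minus COUM, 0 in COUM minus BENZ, 13 in NAPD minus PCNB, 0 lower in IODO minus TCFM, 16 higher in MECL minus VANP, 9 in PGBE minus VANP, 2 in MECL minus PGBE, 0 in ETOX minus VANP, 0 in DIAZ minus MALA and 8 in NAAC minus MALA, and 1 lower in ETOX minus PGBE. Against the mean of the control sets, rises and falls were 5 and 4 with MECL at 100 and at 500 ppm, 12 and 1 at 2000 ppm and 5 and 1 at 3000 ppm, and 3 and 3 with PGBE. Rises were 1, 2, 21, 10 and 22 over the NPTH series, 19 with TCPN, 15 with DCBZ, 22 with DBET and 6 with COUM, and 4 members fell with VANP. Calls of all genes were not counted against the mean of the control sets. Without arrays of low RNA integrity number 1 rose with NPTH at 10 ppm. The MECL trend had 0 falls with log10 concentration, and 4 rises and 0 falls with the air controls at 0 ppm. The NPTH trend had 1 fall with log10 concentration, 24 rises and 0 falls with the air controls (Ak7 at 0.13 and Spag16 at 0.09, reversed), and 1 fall after quantile normalization. With each array left out, over 92 arrays, rises ranged from 7 to 13 with DBET, 1 to 3 with COUM, 0 to 13 with TCPN, 1 to 6 with DCBZ, 0 to 15 with BFUR, 0 to 2 with BBMP, 0 to 2 with MALA, 0 to 1 with IODO, 0 to 3 with NAPD and 0 to 2, 1 to 3 and 2 to 5 with NPTH at 10, 20 and 30 ppm. Falls ranged from 0 to 16 with IODO, 0 to 5 with BBMP and 0 to 2 with MALA, and were 0 to 0 in the others. Leaving out each array of both exposures of a direct contrast, 38 more arrays and chosen after seeing the data, gave 21 to 28 for DBET over BENZ, 7 to 19 for DBET over COUM, 5 to 14 for COUM over BENZ, 4 to 12 for NPTH over MECL, 10 to 20 over ETOX, 15 to 21 (and 0 to 1 lower) over PGBE and 16 to 29 over VANP. It gave 4 to 6 for NAPD over NEDD, 2 to 4 over PCNB, 0 to 6 lower for IODO than TCFM, 0 to 2 higher for TCPN than DCBZ, 3 to 9 (and 0 to 1 lower) for MECL over VANP, 0 to 2 (and 1 to 3 lower) for MECL over PGBE, 1 to 6 for PGBE over VANP, 0 to 4 lower (and 0 to 1 higher) for ETOX than PGBE, 0 to 1 for ETOX over VANP, 0 to 2 for DIAZ over MALA and 2 to 10 for NAAC over MALA. Trends ranged from 8 to 14 rises in both series, with 0 to 4 falls for MECL and 1 to 3 for NPTH. The cause of these changes was not tested.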
